A study of Homo sapiens with 4 samples.

Results

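Imprinted genes are expressed from the maternal or the paternal copy alone, and 38 known imprinted genes at 19 loci were followed here in maps of OGA on chromatin. For 6 of the 38 imprinting is less certain. OGA (O-GlcNAcase) takes the sugar O-GlcNAc off serines and threonines of proteins in the nucleus and cytosol. The genes were chosen by name, and every region that the deposited lists assign to one of them was taken, which gave 20 of 10311 regions, 14 in the control list and 6 in the OGA knockdown list. Occupancy was profiled by CUT&Tag, in which an antibody directs a transposase to cut and tag nearby DNA, in H9, an established human embryonic stem cell line held in the naive state in PXGL medium on mouse feeder cells. The control group was labelled WT (2 libraries) and the other group OGA knockdown (2 libraries, titled shOGA), both with no further treatment. The extent of the knockdown was not given in the sources used here, and the labels do not say whether the replicates were separate cultures.

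At an imprinted locus, DNA methylation laid down in the egg or the sperm marks a control region, and that mark decides which parental copy of the surrounding genes is read. Many of these loci also make a long noncoding RNA, read from the parental copy on which nearby protein-coding genes are silent. The marks survive the erasure of methylation in the early embryo, but human naive cultures are known to lose many of them. The lists hold no methylation, expression or parent of origin, so these were not measured here, and neither was the identity of the cells.

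Each deposited list is 1 merged list per group, and a region carries a position (GRCh38), a width, an annotation class and the distance to the closest transcription start, negative where the region lies upstream. No count, signal or score is listed, so depth was unknown, no value exists per library, and no difference between the groups could be tested. There were 8977 distinct regions for control and 1334 for knockdown, a difference in length that bears on every comparison between them. Each of the 20 regions at imprinted genes was built from exactly 1 peak of replicate 1 and 1 peak of replicate 2.

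OGA regions were listed at 12 of the 38 imprinted genes in control cells (31.6%), at 11 of the 19 loci, beside 10.4% of all RefSeq genes, most of which are noncoding or pseudogenes. These were SNRPN, PEG3, PEG10, L3MBTL1, BLCAP, KCNQ1OT1, MEG3, GNAS, ZDBF2, FAM50B, PHLDA2 and TRAPPC9. After OGA knockdown 5 of the 38 were listed (13.2%, beside 1.89% of all RefSeq genes), PEG3, PEG10, L3MBTL1, KCNQ1OT1 and SNRPN, and 0 genes outside the 12 were added. At the first 4 of them a knockdown region overlapped the control region, while at SNRPN the knockdown region lay elsewhere in the locus.

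Sequence at the covered start sites is shown first, because only 3 control regions spanned a start site, at PEG3, BLCAP and L3MBTL1. RefSeq promoter windows (GRCh38.p14, 250 bases before to 50 after a start) were present for 24 of the 38 genes, not for PEG3. The windows of BLCAP (chr20:37527683-37527982, minus strand) and L3MBTL1 (chr20:43514191-43514490, plus strand) are set around the same transcript starts as the deposited lists give. Both lay wholly inside a control region. The L3MBTL1 window also lay wholly inside the knockdown region. Capitals mark, in BLCAP, the hexamer TGCCGC read on the opposite strand and, in L3MBTL1, each copy of a repeated 12-base unit. TGCCGC is the core recognised in methylated form by ZFP57, a protein that protects imprints. The L3MBTL1 window held 0 copies of TGCCGC on either strand.
BLCAP: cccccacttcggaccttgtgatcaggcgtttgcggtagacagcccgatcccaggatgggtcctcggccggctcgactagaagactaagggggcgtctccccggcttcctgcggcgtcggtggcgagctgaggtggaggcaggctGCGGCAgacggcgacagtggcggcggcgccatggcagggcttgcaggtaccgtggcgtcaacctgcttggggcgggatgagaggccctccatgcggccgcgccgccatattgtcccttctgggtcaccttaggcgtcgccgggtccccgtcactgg
L3MBTL1: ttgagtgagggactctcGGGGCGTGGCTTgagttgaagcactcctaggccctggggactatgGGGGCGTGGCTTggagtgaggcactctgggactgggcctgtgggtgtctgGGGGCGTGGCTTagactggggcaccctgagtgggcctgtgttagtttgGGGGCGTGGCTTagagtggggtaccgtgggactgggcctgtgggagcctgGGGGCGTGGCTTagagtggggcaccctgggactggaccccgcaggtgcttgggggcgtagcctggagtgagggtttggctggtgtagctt

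The covered L3MBTL1 start lies in a tandem array. Its window held 5 copies of GGGGCGTGGCTT, whereas 25 of 35116 RefSeq promoter windows held the unit on either strand (0.0712%) and no other window held more than 2 copies. The unit was picked by a count of repeated 12-base words in this window, after the sequence was seen. That choice favours a high copy number here over other windows, so these background figures cannot show that the array is unusual. A 12-base word with 1 copy in the printed BLCAP window was held by 5 of all windows (0.0142%), a smaller share. Whether other windows hold repeats of their own was not tested. The 2 windows also differed in base composition, with 30 CpG dinucleotides and 68.7% G+C in BLCAP and 9 CpG dinucleotides and 65.3% G+C in L3MBTL1, beside a median of 14 and 58.7% over all windows. How reads align to such an array was not tested. Across the 54 windows of imprinted genes 24 held TGCCGC on either strand (44.4%), against 16.7% of all windows. Several of those 54 windows belong to 1 gene, overlap each other or are the same window under another gene name, and G+C content was not matched. Of the 54 windows 3 lay inside a control region, so the share describes the genes and not the OGA regions.

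Control regions annotated as promoter, which in these lists means within 3 kb of a start site, were listed at 5 of the 38 genes, PEG3, PEG10, SNRPN, L3MBTL1 and BLCAP. PEG3 encodes a zinc finger protein, and its control region covered chromosome 19 positions 56837134 to 56840217. It was 3084 bp wide, wider than or equal to 94.2% of control regions. It spanned the start of transcript NM_001369733.1 and stopped 509 bp short of the start of a longer transcript, NM_001146184.2, which the neighbouring imprinted gene ZIM2 shares in RefSeq. The knockdown region lay inside it at 56838596 to 56839983 (1388 bp), 743 bp from the start of that longer transcript. It was the widest knockdown region at an imprinted gene and was wider than or equal to 96.3% of knockdown regions.

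PEG10, a gene derived from a retrotransposon and needed for the placenta in mice, had the narrowest control region of the imprinted genes and the only pair of knockdown regions. The control region lay on chromosome 7 at 94658327 to 94659270 (944 bp), 1957 bp downstream of the start. A knockdown region at 94658347 to 94659008 (662 bp) lay inside it. Another at 94657804 to 94658189 (386 bp) lay closer to the start, 1434 bp away, and overlapped no control region. A gap of 157 bp separated the knockdown pair. PEG10 is thus the imprinted gene with more regions in the knockdown list than in the control list. By the peak numbering explained below, 4 unlisted peaks of control replicate 1 and 0 of control replicate 2 lay in the 1.43 Mb interval around the extra site. Where in that interval the peaks of replicate 1 lay is not listed. SGCE, its divergent neighbour, had no region of its own in either list.

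L3MBTL1, which encodes a chromatin reader with malignant brain tumor domains, had a pair of control regions on chromosome 20. The first, at 43507989 to 43509533 (1545 bp), began 292 bp downstream of the start of NM_001377311.1 and was overlapped by no knockdown region. The second, at 43513780 to 43514800 (1021 bp), spanned the start of NM_001377309.1, the site with the tandem array printed above. The regions were 4246 bp apart. The knockdown region at 43514103 to 43514550 (448 bp) lay inside the second. Of the pair it was therefore the narrower one that had a counterpart in the knockdown list.

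SNRPN encodes a protein of the splicing machinery, and its start lies at the imprinting centre of the locus linked to Prader-Willi and Angelman syndromes. It had the widest control region of all imprinted genes, on chromosome 15 at 24950629 to 24954120 (3492 bp). That region ended 867 bp upstream of the start of NM_001349463.2 and did not cover it. The knockdown region assigned to SNRPN, at 24847672 to 24848216 (545 bp), lay 8355 bp upstream of the start of another transcript, inside an intron of the noncoding RNA gene SNHG14. It overlapped no control region, so SNRPN was listed in both groups without sharing a site. SNURF, which shares its start with SNRPN in RefSeq, and NDN, MAGEL2, MKRN3 and UBE3A had no region. Because a region is assigned to 1 gene, SNURF could not have been named for the same interval.

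**Figure D1:**
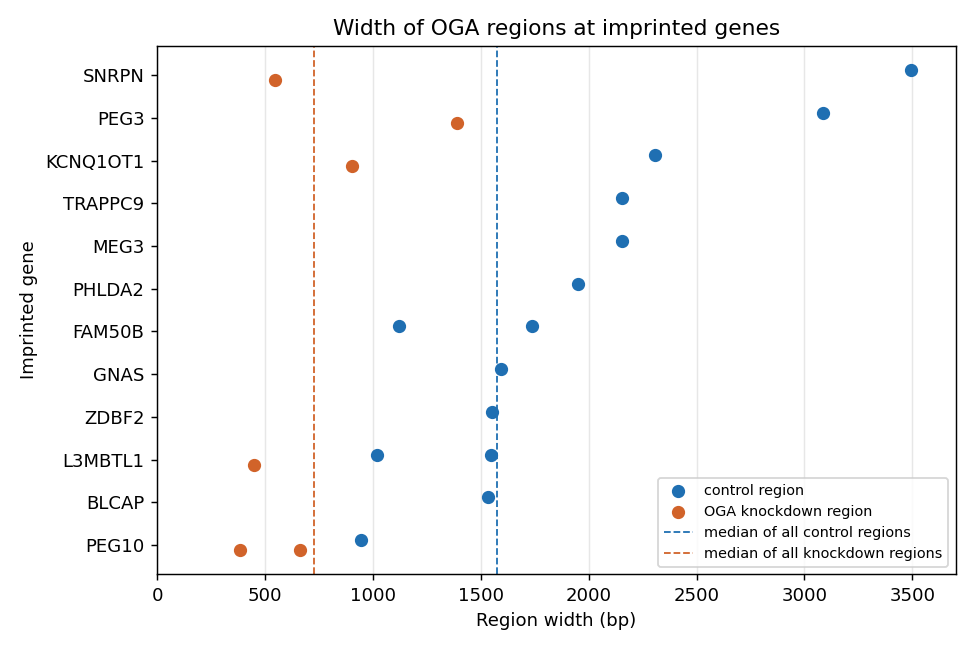
Width of each OGA region in base pairs (x axis) at the 12 imprinted genes with a region (y axis), with control regions in blue, OGA knockdown regions in orange and the median of each whole list as a dashed line. Control regions ran from 944 bp at PEG10 to 3492 bp at SNRPN, and knockdown regions from 386 bp at PEG10 to 1388 bp at PEG3.

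Regions also lay within long noncoding RNAs of imprinted loci. KCNQ1OT1, a paternally expressed antisense RNA that silences CDKN1C and other genes around it, had a control region in its only exon on chromosome 11 at 2692279 to 2694585 (2307 bp), 5413 bp downstream of its start. The knockdown region at 2692944 to 2693848 (905 bp) lay inside it, with centres 36 bp apart. MEG3, a maternally expressed RNA, had a control region in exon 6 of 9 on chromosome 14 at 100833546 to 100835700 (2155 bp), 7414 bp downstream of a start, and none after knockdown. The region assigned to ZDBF2, a paternally expressed zinc finger gene, lay 15537 bp upstream of it on chromosome 2 at 206256486 to 206258035 (1550 bp), in exon 4 of 6 of the noncoding RNA GPR1-AS. It too had no counterpart after knockdown.

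The 3 control regions at imprinted genes that were annotated as exonic were thus all in noncoding RNA exons. In the whole control list 87 of 467 exonic regions were (18.6%). KCNQ1OT1 is a single unspliced exon of great length, so most positions within it count as exonic. Of the coding genes at these loci, KCNQ1, CDKN1C, DLK1 and RTL1 were assigned no region in either list. PHLDA2, in the KCNQ1OT1 locus, had a control region described with the distal ones.

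The other control regions lay away from start sites or, at BLCAP, across one. BLCAP, whose intron contains the imprinted gene NNAT, had its region on chromosome 20 at 37527507 to 37529039 (1533 bp). NNAT itself had none. GNAS, which encodes the stimulatory G protein alpha subunit from several imprinted promoters, had its region in intron 1 of 3 of a transcript on chromosome 20, at 58869808 to 58871399 (1592 bp), 16814 bp downstream of a start. FAM50B, a paternally expressed retrogene, had a pair of intergenic regions on chromosome 6, at 3820261 to 3821379 (1119 bp) and 3821708 to 3823446 (1739 bp). They were 328 bp apart and lay 10522 and 8455 bp upstream of the assigned start, at 3831901 for transcript XR_001743335.1. The RefSeq promoter window of FAM50B lies farther from them, at 3849123 to 3849422.

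PHLDA2, a maternally expressed restrainer of placental growth, was assigned a region 10189 bp upstream on chromosome 11, at 2939609 to 2941557 (1949 bp), which the annotation places 2 to 3 kb downstream of a gene end. TRAPPC9, a subunit of a vesicle tethering complex whose locus contains the imprinted RNA PEG13, had a region in intron 2 of 22 on chromosome 8 at 140444501 to 140446656 (2156 bp), 11088 bp from its start. PEG13 and KCNK9 had none. No knockdown region overlapped any of the control regions at BLCAP, GNAS, FAM50B, PHLDA2 and TRAPPC9.

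**Figure D2:**
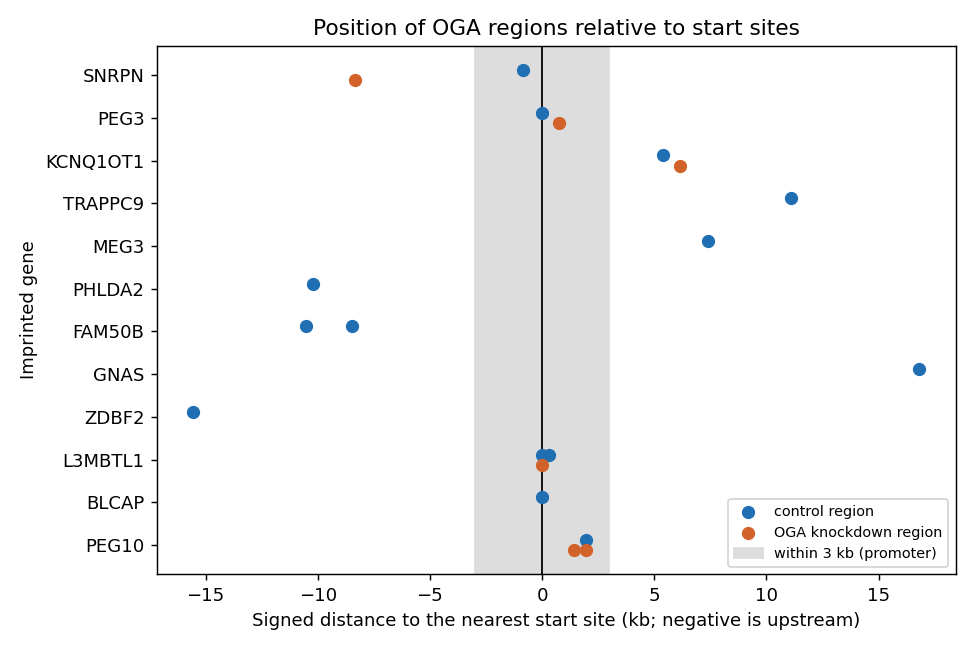
Signed distance in kb from each OGA region to the nearest start site (x axis, negative is upstream) for the 12 imprinted genes (y axis), control in blue and OGA knockdown in orange, with the promoter range of 3 kb shaded. Of 14 control regions 6 lie in the shaded range, and the farthest is at GNAS, 16814 bp downstream.

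Control regions at imprinted genes were promoter regions in 6 of 14 cases (42.9%, Wilson 95% interval 21.4 to 67.4), beside 46.9% of all control regions. Intervals here cover counting error only. They lay a median of 6414 bp from a start, and regions of the whole list 3789 bp. The median width of these control regions was 1666 bp, against 1577 bp, and 8 of the 14 were wider than the list's median. The nearest other control region was a median of 51.0 kb away, against 20.1 kb, and SNRPN stood most alone, with 1811176 bp to its nearest listed neighbour. In the knockdown list 4 of the 6 regions at imprinted genes were promoter regions (66.7%, 30.0 to 90.3). Of all knockdown regions 39.1% were, which lies inside that interval, and 2 of the 4 were the PEG10 pair. The median width of the 6 was 604 bp, against 727 bp.

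Loci differed in how many of their neighbours also had a region. Around ZDBF2, 5 control regions assigned to other genes lay within 100 kb, among them a region of 3075 bp over the start of GPR1-AS, a noncoding RNA read towards ZDBF2 in early embryos, and a region of 1285 bp over the start of GPR1, now named CMKLR2. The GPR1 region was the one of these neighbours with a knockdown counterpart, of 1174 bp. Upstream of MEG3, a pair of regions was assigned to MIR2392, at 100804694 to 100810213 (5520 bp) and 100810827 to 100812486 (1660 bp). The first was wider than every region at the 38 imprinted genes, and 29 of 8977 control regions were wider still. They lay 23.3 and 21.1 kb upstream of the MEG3 region, respectively, and no knockdown region overlapped them.

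Further control regions near imprinted genes were assigned to neighbours. A control region in intron 1 of IGF2R, on chromosome 6 at 159988429 to 159989789 (1361 bp), was assigned to AIRN, the antisense RNA that silences Igf2r in mice. On chromosome 11 a region at 2089066 to 2090133 (1068 bp) lay 44.1 kb from MIR483, a microRNA hosted by IGF2, and was named for it, while H19 and IGF2 had none. SLC22A18AS, close to PHLDA2, had a promoter region of 1105 bp. Counting annotation text as well as assignment raised the imprinted genes with a control region from 12 to 13, through IGF2R.

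**Figure D3:**
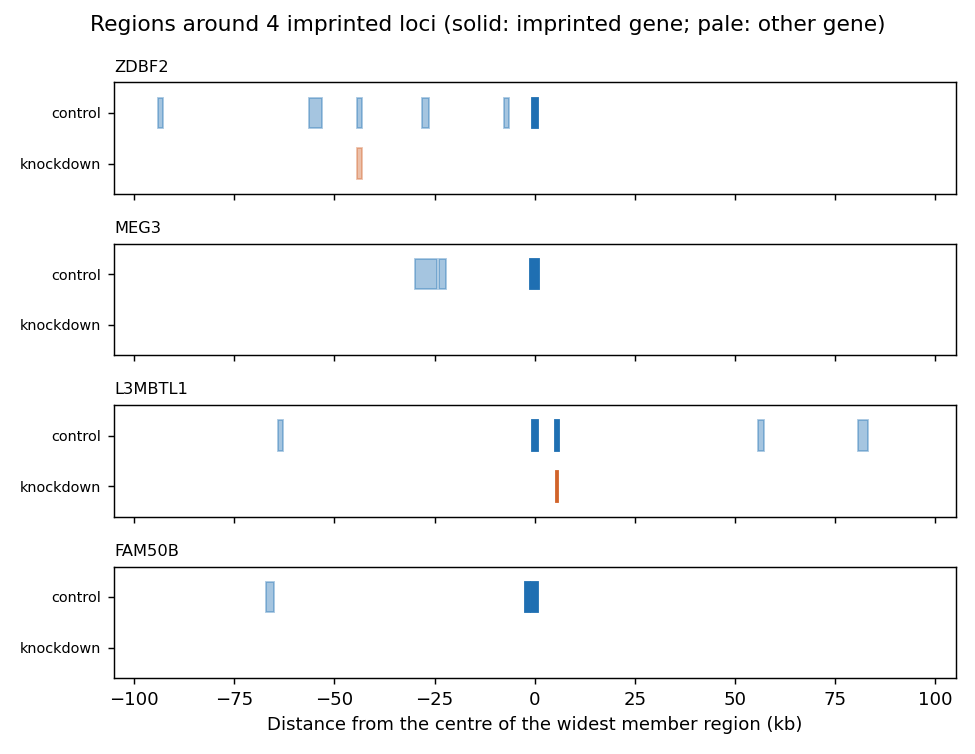
Regions within 100 kb of those of ZDBF2, MEG3, L3MBTL1 and FAM50B, drawn to scale against the distance in kb from the centre of the widest region of that gene, with increasing chromosome position to the right. Solid boxes belong to the imprinted gene and pale boxes to other genes, with 5 pale control regions at ZDBF2 and the 5520 bp region left of MEG3.

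For 26 of the 38 genes, ZIM2 included, neither list held an assigned region, and 8 loci had none by assignment. The regions described above within IGF2R, assigned to AIRN, and named for MIR483 are not counted here. The 8 loci were H19 and IGF2, MEST and MESTIT1, PLAGL1 and HYMAI, NAP1L5 and HERC3, and the single genes GRB10, DIRAS3, INPP5F and IGF2R. These loci include IGF2, a fetal growth factor, H19, the noncoding RNA read from the other parental copy, PLAGL1, a zinc finger regulator of growth, GRB10, an adaptor that dampens insulin signalling, and DIRAS3, a small GTPase. All 8977 control and 1334 knockdown regions named a peak of each replicate, so a gene without a region may still have had a peak in 1 library.

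Gene type was taken into account next. Of the 32 protein-coding members 10 had a control region (31.3%, Wilson 95% interval 18.0 to 48.6), beside 21.7% of all protein-coding genes, which lies inside that interval. A promoter region was listed for 5 of them (15.6%), beside 14.9%. Of the 6 noncoding RNA members 2 had a control region, KCNQ1OT1 and MEG3, beside 6.18% of all lncRNA genes. After knockdown 1 of the 6 had one, KCNQ1OT1, beside 0.944%. Gene length, expression and the number of start sites were not matched.

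In the knockdown list 4 of the 32 protein-coding members had a region (12.5%, 4.97 to 28.1), beside 3.99% of protein-coding genes, and 3 had a promoter region (9.38%, 3.24 to 24.2), beside 2.05%. These 3 were PEG3, PEG10 and L3MBTL1. Of the 12 imprinted genes listed in control 5 appeared again after knockdown (41.7%, 19.3 to 68.0), beside 14.3% of all genes in the control list. Both shares lay above the background, but they rest on 4 and 5 genes chosen with earlier results known, and no test was made.

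By site, 4 of the 14 control regions were overlapped by a knockdown region by at least 1 bp (28.6%, 11.7 to 54.6), beside 10.0% of all control regions. From the other side, 4 of the 6 knockdown regions met a control region (66.7%), beside 69.0% of all knockdown regions. Each of the 4 knockdown regions lay wholly inside its control region, as did 83.8% of all overlapping pairs. The control region was 2.55 times as wide at KCNQ1OT1, 2.28 times at L3MBTL1, 2.22 times at PEG3 and 1.43 times at PEG10, with a median of 2.25 beside 2.47 over all 922 pairs.

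**Figure D4:**
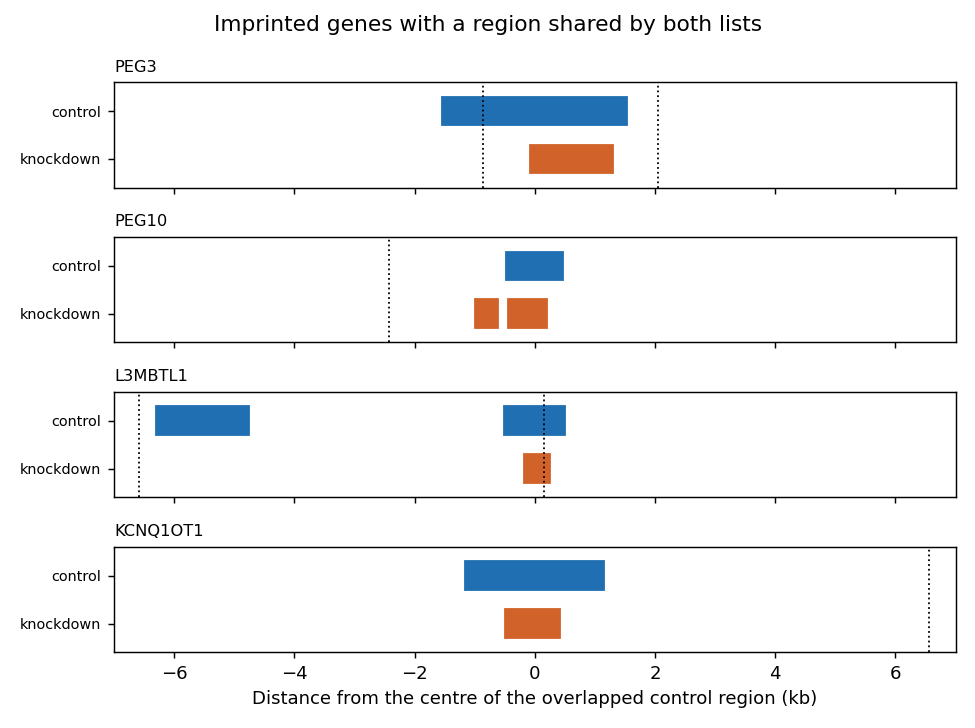
Control regions (blue) and OGA knockdown regions (orange) at the 4 imprinted genes with a shared site, against the distance in kb from the centre of the overlapped control region, with increasing chromosome position to the right and dotted lines at the transcript starts of the deposited lists. Each orange box sits within a blue one except the left box at PEG10, of 386 bp.

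Width did not separate the shared regions from the others. The 4 overlapped control regions ran from 944 to 3084 bp with a median of 1664 bp, and the 10 not overlapped ran from 1119 to 3492 bp with a median of 1666 bp. The groups overlapped throughout, and the narrowest control region, at PEG10, was shared while the widest, at SNRPN, was not. Of the 4 shared regions 3 were promoter regions, against 3 of the 10 others.

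Absence from the knockdown list does not show that a library had no peak. Replicate peaks are numbered in order along each chromosome, so the numbers skipped between listed regions count peaks that entered no region. For the 7 control regions without overlap that had knockdown regions on both sides, 6 to 31 unlisted peaks of knockdown replicate 1 and 5 to 30 of replicate 2 lay in the surrounding interval of 1.57 to 10.1 Mb. At MEG3 the numbers were 6 and 5 within 1.57 Mb. Where in those intervals the peaks lay is not listed.

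**Figure D5:**
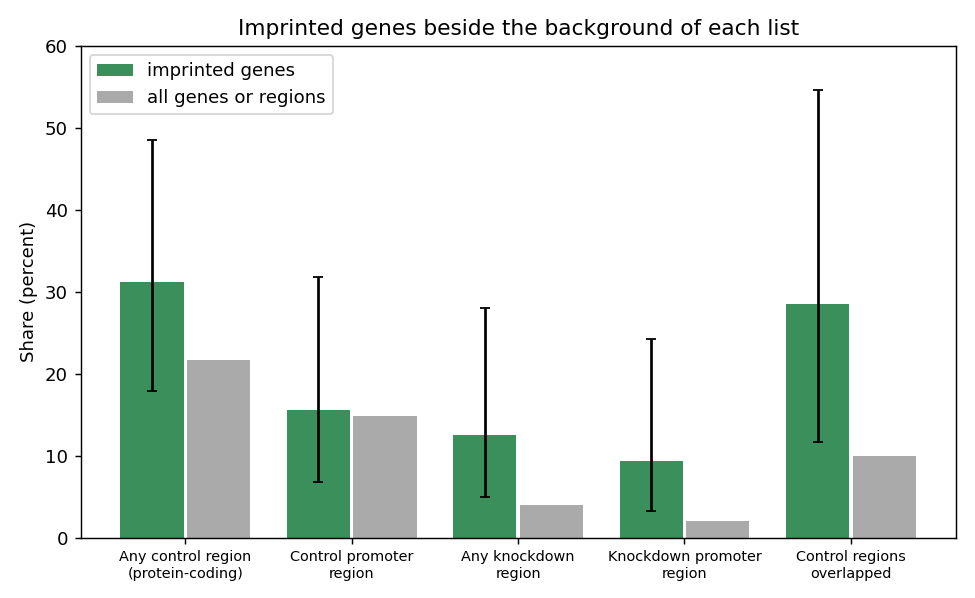
Share in percent (y axis) of the 32 protein-coding imprinted genes with a region or promoter region in each list, and of the 14 control regions of all 38 genes overlapped by a knockdown region (green, with Wilson 95% intervals), beside all protein-coding genes or all control regions (grey). The pairs read 31.3 and 21.7%, 15.6 and 14.9%, 12.5 and 3.99%, 9.38 and 2.05%, and 28.6 and 10.0%.

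Of 56 further imprinted genes outside the 38, 11 had a control region (19.6%, beside 10.4% of all RefSeq genes and 21.7% of protein-coding genes), and the widest were at GPR1-AS (3075 bp), NAA60 (2127 bp), PXDC1 (2000 bp), ZFP90 (1733 bp), AIRN (1361 bp) and ZNF331 (1358 bp). In the knockdown list 2 of the 56 had one (3.57%, beside 1.89% and 3.99%), CMKLR2 and ANO1, each overlapping a control region. The difference from the 38 genes was not tested.

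Of 24 genes grouped here as imprint maintenance factors, 15 had a control region (62.5%, beside 21.7% of protein-coding genes). A promoter region was listed for 12, beside 14.9% of protein-coding genes. The grouping was by name, PGR and SMCHD1 included, and a role in imprinting was not checked for each gene. The widest regions were at TET1, an enzyme that oxidises methylcytosine (3031 bp), DNMT3L, the cofactor of the de novo methyltransferases (2935 bp), DPPA3, which shields the oocyte genome from methylation changes in mice (2511 bp), CTCF, the insulator protein (2267 bp), ZFP57 (2023 bp) and TET3 (1990 bp). In the knockdown list 4 were named (16.7%, beside 3.99%), TET1, DNMT3L, ARID4A and NLRP7. This list shares members with pluripotency and maternal-effect genes, and its share was not tested against that of the imprinted genes.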

How the data were processed

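OGA CUT&Tag regions of H9 naive cells were taken from 2 deposited lists, control and OGA knockdown, each merging 2 libraries. The build GRCh38.p13 and the tools ChIPseeker 1.12.1, SEACR 1.3, edgeR, DESeq2 and Bowtie2 2.3.4.3 appear in the submitters' processing notes, which state no role for them. Of the peak threshold, the antibody control and the depth, none is stated in these sources. Per the file headers the deposited values used are region width and distance to the nearest start site, both in base pairs. The control list repeated 1 line, used once.

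Regions were assigned by the gene name the authors deposited, and all 38 names matched RefSeq (GRCh38.p14), which gave gene types, neighbours and promoter windows. A control and a knockdown region sharing 1 bp or more counted as overlapping. Shares carry Wilson 95% intervals. The overlap step was checked on simulated data. Every imprinted gene was accounted for, with up to 6 genes named from each further list. The genes, lists and loci were chosen with earlier results of these data known. Alternatives changed the overlap rule, the width filter, the promoter limit, the name matching and the gene set. Software was Python 3.11.15, with matplotlib 3.10.9, scipy 1.17.1, pandas 2.3.3 and numpy 2.4.6.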

Additional observations from a re-analysis of the deposited data

How the results depend on the processing

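Of 23 alternatives 16 left the count within 1.5 times the reported value and 7 moved it. When regions narrower than the median control region were dropped, imprinted genes kept 8 control regions and 0 knockdown regions, so 0 genes were listed after knockdown and 0 control regions were overlapped, since no knockdown region at these genes reaches that width. When the control list was cut to its widest regions, equal in number to the knockdown list, 2 genes and 2 control regions were left, SNRPN and PEG3, and 1 of them was overlapped. With centres within 500 bp 3 control regions were shared in place of 4, without PEG3, and with promoters within 1 kb PEG10 dropped out of both lists. Without the 6 genes of less certain imprinting, 10 genes in place of 12 had a control region, and 5 still had a knockdown region. No paired analysis was possible because each list gives 1 merged value for its 2 libraries, and leaving out a replicate was not run for the same reason. Counting loci in place of regions and counting annotation text were chosen after seeing the data. Depth is unknown, so a missing region sets no limit on occupancy.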
